A study of Mus musculus with 8 samples.

Results

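The 33 genes described here build cholesterol and fatty acids or govern that synthesis, and were examined in the bone marrow (BM) of mice with acute myeloid leukemia (AML) and different Gab2 genotypes. Gab2 is a docking protein that passes signals from activated tyrosine kinase receptors. Members were named by function, with earlier results of these data known. Looked up in the deposited count table by Ensembl identifier through GENCODE M21 (GRCm38), all 33 of 33 were found among 13305 genes. They comprise 19 genes of the sterol arm (8 of the mevalonate and isoprenoid steps and 11 from squalene to cholesterol), 9 genes of the fatty acid arm, and 5 regulators and transport genes.

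Every mouse was of the C57BL/6N strain and carried Mx1-Cre, the Dnmt3a+/- genotype and Flt3ITD/ITD, so that the control animals had leukemia as well. Gab2 was +/+ in the 3 AML WT mice, +/- in the 2 AML HET mice and -/- in the 3 AML KO mice. Mx1-Cre is driven by an interferon-responsive promoter and acts in blood-forming cells and in some other tissues. BM was sequenced whole, and the labels give neither an age nor a treatment. In such a mixture, fewer cells of a type and less RNA per cell cannot be told apart.

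Cholesterol is made from acetyl-CoA by way of mevalonate, isoprenoid diphosphates, squalene and lanosterol, and fatty acids are made from the same acetyl-CoA by carboxylation, chain building, elongation and desaturation. Both arms are transcribed under the sterol regulatory element-binding proteins encoded by Srebf1 and Srebf2, which are held in the endoplasmic reticulum by Insig proteins when sterols are plentiful. The Srebf2 product acts mainly on sterol genes and the Srebf1 product mainly on fatty acid genes, often beside the factor NF-Y, which binds CCAAT. Dividing leukemic cells draw on both arms for membranes.

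No member passed the threshold (adjusted p under 0.05, edgeR quasi-likelihood test over all genes) in any of the 3 genotype comparisons. When AML KO mice were compared with AML WT mice, the estimate was lower for 29 of the 33 members, against 51.9% of all genes, and the median log2 fold change was -0.30, against -0.02 over all genes. An unadjusted p under 0.05 was reached by 12 members, all of them lower, where 17.7% of all genes reached it in either direction and 7.88% did so as lower. The members were chosen with earlier results of these data known, so these shares describe the list and do not test it. DESeq2, run as an alternative, called 5 members lower, namely the genes of squalene epoxidase (Sqle) and lanosterol synthase (Lss), Insig1 and the stearoyl-CoA desaturase genes Scd1 and Scd2, while limma-voom called none. Of all genes, DESeq2 called 1.71% lower in AML KO against AML WT BM, where edgeR called 0.323% lower.

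Start-site windows were examined because the sterol genes are known to share promoter elements. RefSeq (GRCm38.p6) gave a window of 300 bases, from 250 before to 50 after the start, for 26 of the 33 members, and none for Sqle, Scd1, Scd2, Fads1, Stard4, Fdps and Fdft1. A CCAAT element, read as CCAAT or ATTGG to cover both strands, was present in 22 of the 26 members (84.6%), compared with 42.6% of the 10006 genes of the table that have a window and 37.41% of all 32851 windows. It was found in 15 of 16 sterol genes, 3 of 6 fatty acid genes and 4 of 4 regulator and transport genes. The sterol regulatory element TCACNCCAC occurred in 1 of the 26, Hmgcs1, and in 1.4% of the table's genes and 1.24% of all windows. The E-box CACGTG, which is the same on both strands, occurred in 4 of the 26 (Insig1, Hsd17b7, Dhcr7 and Sc5d), in 11.58% of the table's genes and in 7.15% of all windows. The element searches overlap only where CCAAT and ATTGG share letters. A match describes the letters in the window and not a bound site.

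Windows are shown for Hmgcs1, as the one holding the sterol regulatory element, for Lss and Insig1, which had among the smallest p of their groups, and for Fasn, as the central fatty acid gene. They run 5′ to 3′ on the strand of the gene, and capitals mark the elements named above. Positions give the first letter of an element relative to the RefSeq start base, which is 0. The last 50 bases of the window lay unbroken in an M21 transcript of the gene for Insig1 and Fasn. For Hmgcs1 and Lss they did not, so positions there rest on the RefSeq start alone.
Hmgcs1, chr13:119690101-119690400, plus strand: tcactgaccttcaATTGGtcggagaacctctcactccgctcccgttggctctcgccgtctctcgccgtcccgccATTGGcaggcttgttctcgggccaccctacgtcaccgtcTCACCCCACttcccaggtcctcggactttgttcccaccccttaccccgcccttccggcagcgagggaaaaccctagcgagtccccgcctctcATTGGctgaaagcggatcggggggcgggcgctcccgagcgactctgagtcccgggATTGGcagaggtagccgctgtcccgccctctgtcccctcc
Lss, chr10:76531355-76531654, plus strand: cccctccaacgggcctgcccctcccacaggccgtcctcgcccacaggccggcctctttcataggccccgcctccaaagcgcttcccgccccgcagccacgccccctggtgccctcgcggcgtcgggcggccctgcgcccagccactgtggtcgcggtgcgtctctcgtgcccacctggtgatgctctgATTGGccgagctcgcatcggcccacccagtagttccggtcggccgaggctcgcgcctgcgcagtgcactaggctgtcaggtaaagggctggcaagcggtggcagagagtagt
Insig1, chr5:28071162-28071461, plus strand: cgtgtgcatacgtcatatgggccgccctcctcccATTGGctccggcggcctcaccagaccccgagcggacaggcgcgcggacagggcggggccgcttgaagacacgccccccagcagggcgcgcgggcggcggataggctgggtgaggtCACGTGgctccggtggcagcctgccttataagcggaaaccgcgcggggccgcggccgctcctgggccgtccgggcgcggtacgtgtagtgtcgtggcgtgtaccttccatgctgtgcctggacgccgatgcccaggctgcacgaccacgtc
Fasn, chr11:120824498-120824797, minus strand: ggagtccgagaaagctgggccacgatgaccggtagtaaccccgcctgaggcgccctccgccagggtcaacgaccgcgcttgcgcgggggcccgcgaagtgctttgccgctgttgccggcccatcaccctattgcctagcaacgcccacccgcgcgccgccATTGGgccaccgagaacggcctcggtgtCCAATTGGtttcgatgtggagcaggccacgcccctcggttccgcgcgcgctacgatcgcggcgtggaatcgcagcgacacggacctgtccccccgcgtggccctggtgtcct
In Hmgcs1 the sterol regulatory element began 137 bases before the start, among 4 CCAAT elements at -237, -176, -45 and 10. Lss held 1 CCAAT element, at -62. Insig1 held 1 at -216 and an E-box at -101. Fasn held 3, at -90, -62 and -59, of which the last pair overlap in the run CCAATTGG.

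Gab2 (ENSMUSG00000004508, chromosome 7, 97081586 to 97308946, plus strand), the targeted gene, was measured at 93.9, 68.5 and 61.6 CPM in the AML WT mice, 55.8 and 50.8 in the AML HET mice and 34.96, 47.2 and 40.2 in the AML KO mice, where CPM (counts per unit of library size, scaled with TMM factors) is the unit of level throughout. No AML KO mouse reached the lowest AML WT level, and reads on the gene remained in all AML KO mice. AML KO BM was -0.87 (SE 0.18, adjusted p 0.04204) on the log2 scale against AML WT BM, and this call was lost with a replicate block (adjusted p 0.165), with only the groups compared (0.0809), with at least 1 CPM in every mouse (0.0551) and in 6 of the 8 fits that left out a mouse (0.0783 to 0.159), all but those without AML WT replicate 3 or AML KO replicate 2. Over all genes, 2.09% passed the threshold in AML KO against AML WT BM and 0.323% passed it as lower, while 0.0225% passed in AML HET against AML WT and 0% in AML KO against AML HET. Libraries held 28009258 to 39266815 counts. Of the members, 31 had at least 100 counts in every mouse, and the counts ranged from 10, for Me1, to 20653.

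Markers of several BM cell types differed with the Gab2 genotype, and their part in the results was not tested. The summed level of 13 erythroid markers was 199.6 to 264 CPM in AML WT, 386 to 1125 in AML HET and 749 to 2270 CPM in AML KO mice, and 11 of the 13 were called higher in AML KO against AML WT BM. For 10 megakaryocyte and platelet markers the sums were 35.3 to 38.8, 57.4 to 92.2 and 225 to 336 CPM, with 10 of 10 called higher. For 12 markers of mature neutrophils they were 1399 to 4824, 5541 to 6229 and 10659 to 17337 CPM, with 8 called higher. The sums of 13 monocyte and macrophage markers overlapped between AML WT (4852 to 5711 CPM) and AML KO mice (3522 to 4986 CPM), with 1 called lower and 1 higher. The overlap came from AML KO replicate 2 at 4986 CPM, with replicates 1 and 3 at 3522 and 3615 CPM. Of these 13 markers, 9 had the lower estimate in AML KO against AML WT BM, with a median log2 fold change of -0.33. At an unadjusted p under 0.05 by edgeR, 5 were lower and 1 higher, against 7.88% of all genes as lower. None of the 5 primary granule, 7 B cell, 9 T and NK cell or 8 stroma and adipocyte markers was called. Primary granule sums were 5340 to 5975 CPM in AML WT and 6986 to 8322 CPM in AML KO mice, without overlap. Stroma and adipocyte sums were 725 to 1265 and 457 to 735 CPM, with overlap. By edgeR, 2 of these stroma and adipocyte markers were lower and 2 higher at an unadjusted p under 0.05. The B cell and the T and NK cell sums overlapped. No marker was at 0 in any mouse.

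**Figure D1:**
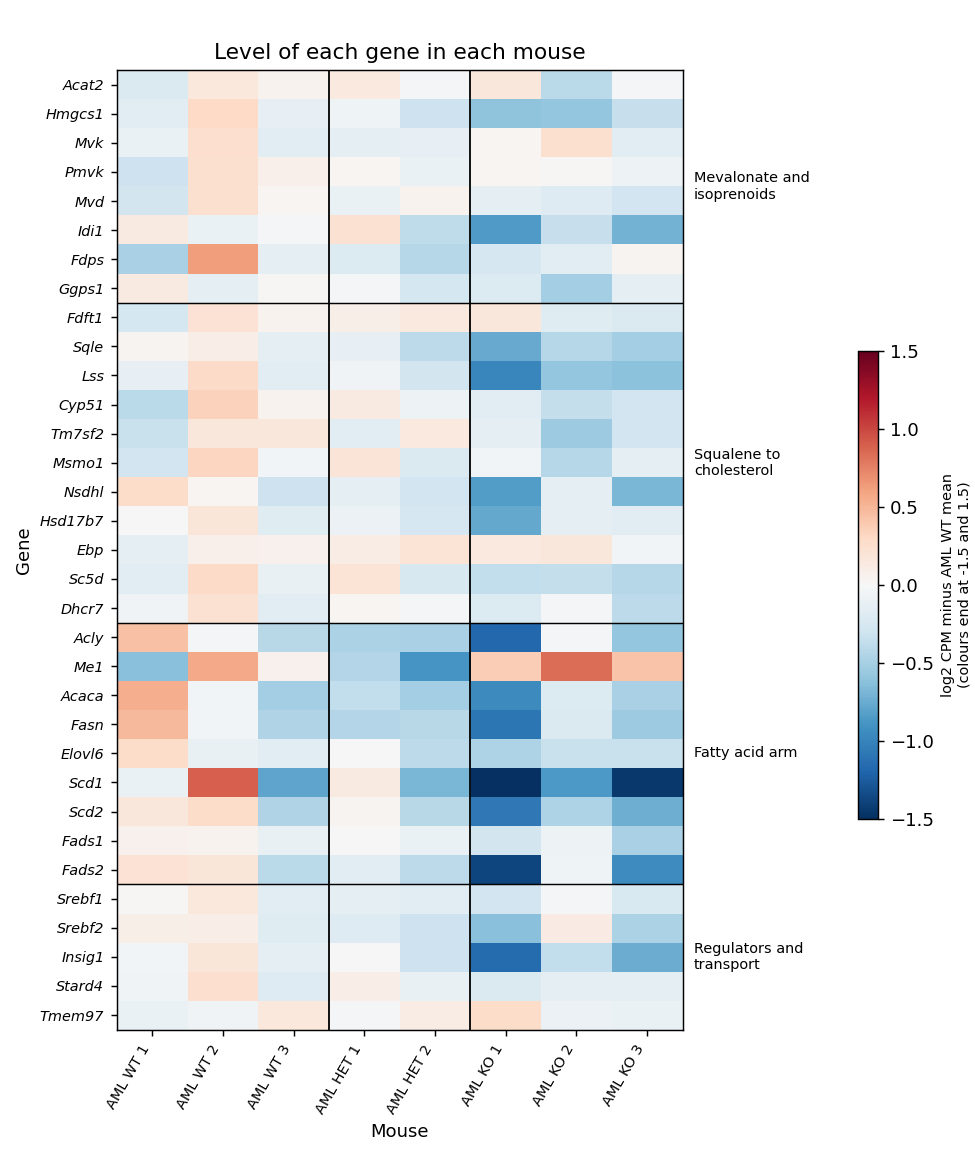
Level of each of the 33 genes (vertical axis) in each of the 8 mice (horizontal axis) as log2 CPM minus the AML WT mean of that gene, with blue for lower and red for higher values and lines between genotypes and gene groups. The AML KO columns are mostly blue for Sqle, Lss, Idi1, Insig1, Scd1 and Scd2. For most fatty acid genes AML KO replicate 1 is the darkest and AML KO replicate 2 the palest of the AML KO mice. Me1 is red in the AML KO mice, and Fads1 is darkest in AML KO replicate 3.

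Among the mevalonate and isoprenoid genes, 7 of 8 had the lower estimate in AML KO against AML WT BM, with a median log2 fold change of -0.21. Hmgcs1 (ENSMUSG00000093930, chromosome 13, 119690379 to 119708260, plus strand), which makes HMG-CoA, was at 80.8, 112 and 83.4 CPM in the AML WT mice, 87.3 and 73.4 in the AML HET mice and 60.1, 61.2 and 71.5 in the AML KO mice. Every AML KO mouse was below every AML WT mouse, and the log2 fold change was -0.52 (SE 0.16, adjusted p 0.161). Idi1 (ENSMUSG00000058258, chromosome 13, 8885501 to 8892451, plus strand), which interconverts the isoprenoid units, was at 14.8, 12.6 and 13.2 CPM in the AML WT mice, 15.8 and 10.4 in the AML HET mice and 7.42, 10.6 and 8.19 in the AML KO mice. Its AML WT and AML KO groups did not overlap either, at -0.63 (SE 0.21, adjusted p 0.205), whereas the AML HET mice lay on either side, with replicate 1 the highest of all mice and replicate 2 just under the highest AML KO mouse.

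The other mevalonate genes overlapped between AML WT and AML KO mice. The log2 fold change was -0.22 for Mvd (adjusted p 0.408), which completes the first isoprenoid unit, and -0.28 for Ggps1 (adjusted p 0.359), which leads to protein prenylation instead of sterols. The kinases Mvk and Pmvk stood at 0.03 and -0.03, and Acat2, the thiolase that starts the route, at -0.07. Mvk turned from higher to lower with total counts as the scaling, at -0.032. Fdps, the farnesyl diphosphate synthase, was at 4.75, 10.3 and 6.03 CPM in the AML WT mice, 5.75 and 4.94 in the AML HET mice and 5.56, 5.97 and 6.87 in the AML KO mice, with a log2 fold change of -0.19 (SE 0.29). These values are uncertain for Fdps and Acat2, since 86.4% of the 50-base stretches of the Fdps transcript and 45.9% of those of Acat2 also occur in transcripts of other genes, mainly Gm43738 and Acat3. The same holds for 21.3% of Idi1, shared with Gm13502.

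From squalene to cholesterol, 10 of 11 genes had the lower estimate in AML KO against AML WT BM, with a median of -0.33. Sqle (ENSMUSG00000022351, chromosome 15, 59315077 to 59331192, plus strand), an oxygen-requiring step often rate-limiting for sterols, was at 63.3, 65.5 and 55.4 CPM in the AML WT mice, 56.3 and 46.6 in the AML HET mice and 36.2, 45.4 and 43.1 in the AML KO mice. All AML KO mice were below all AML HET and AML WT mice. The AML KO level was 0.677 times that of AML WT, with a log2 fold change of -0.56 (SE 0.14, adjusted p 0.0828), the smallest adjusted p of any member. Lss (ENSMUSG00000033105, chromosome 10, 76531588 to 76557138, plus strand), which closes squalene epoxide into lanosterol, was at 18.3, 24.4 and 17.8 CPM in the AML WT mice, 19.2 and 16.5 in the AML HET mice and 10.1, 13.3 and 13.03 in the AML KO mice. The AML KO mice were again below all others, at 0.603 times the AML WT level and a log2 fold change of -0.73 (SE 0.18, adjusted p 0.0864). Neither gene shared any 50-base stretch with another gene.

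Of the later steps, Sc5d, a sterol desaturase, was at 26.3, 36.2 and 27.4 CPM in the AML WT mice, 34.2 and 25.05 in the AML HET mice and 22.96, 23.1 and 22.1 in the AML KO mice. Its AML WT and AML KO groups did not overlap, with a log2 fold change of -0.40 (SE 0.17, adjusted p 0.272), or -0.24 without AML WT replicate 2. Nsdhl, which removes carbons from the sterol ring, was at 27.4, 23.1 and 18.2 CPM in the AML WT mice, 20.6 and 18.5 in the AML HET mice and 12.6, 20.6 and 14.1 in the AML KO mice. AML KO replicate 2 lay within the AML WT range, and the log2 fold change was -0.54 (SE 0.22, adjusted p 0.253).

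The remaining 7 genes of this stretch overlapped between AML WT and AML KO mice, and none had an unadjusted p under 0.05. Log2 fold changes were -0.34 for the ketoreductase gene Hsd17b7, -0.33 for the reductase gene Tm7sf2, -0.30 for the lanosterol demethylase gene Cyp51 and -0.21 for the methyl sterol oxidase gene Msmo1. Dhcr7, which carries out the last reduction of one branch, stood at -0.21, and Fdft1, the squalene synthase gene, at -0.08. Ebp, the sterol isomerase gene, had the only higher estimate, 0.09 (95% interval -0.18 to 0.36). Cyp51 ranged from 58.5 to 98.5 CPM in the AML WT mice alone, which held both its lowest and its highest level. Dhcr7 is the only member on the chromosome of Gab2, 46.5 Mb away.

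**Figure D2:**
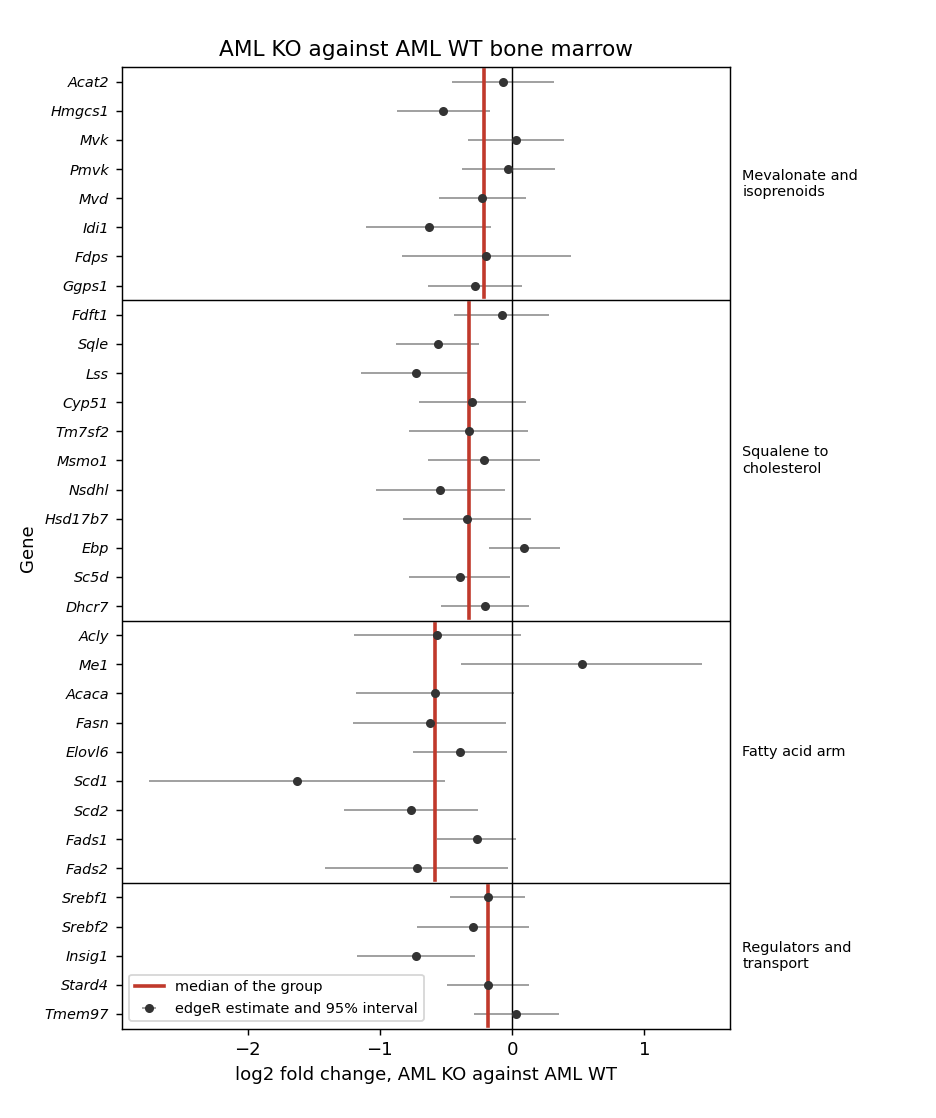
Log2 fold change of AML KO against AML WT BM on the horizontal axis for each of the 33 genes (vertical axis), with points for the edgeR estimates, bars for 95% intervals and red lines for the median of each gene group. Points lie left of 0 for 29 genes, and the red line is farthest left in the fatty acid arm, at -0.58.

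In the fatty acid arm, 8 of 9 genes had the lower estimate in AML KO against AML WT BM, with a median of -0.58, and 5 had an unadjusted p under 0.05. The desaturases, which introduce the first double bond, differed most. Scd2 (ENSMUSG00000025203, chromosome 19, 44293674 to 44306864, plus strand), by length the most abundant member, was at 508, 547 and 331 CPM in the AML WT mice, 466 and 338 in the AML HET mice and 215, 329 and 273 in the AML KO mice. AML KO mice were at 0.588 times the AML WT level with a log2 fold change of -0.77 (SE 0.23, adjusted p 0.151), although AML KO replicate 2 and AML WT replicate 3 were nearly level.

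Scd1 (ENSMUSG00000037071, chromosome 19, 44394455 to 44407879, minus strand), its neighbour 87.6 kb away, was at 5.78, 11.6 and 3.55 CPM in the AML WT mice, 6.84 and 3.82 in the AML HET mice and 1.18, 3.38 and 2.24 in the AML KO mice. It had the largest fold change of all members, -1.62 (SE 0.50, adjusted p 0.165), or 0.324 times the AML WT level, with a 95% interval of -2.74 to -0.51. The range among AML WT mice alone was wider than the difference between the group means, and the log2 fold change was -1.05 without AML WT replicate 2. Scd1 shared 4.7% and Scd2 4.0% of their 50-base stretches with other genes, and their paralog Scd4, the only other one in the table, had a log2 fold change of -0.22.

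The genes of the chain-building core varied widely among mice of 1 genotype. Acly (ENSMUSG00000020917, chromosome 11, 100476353 to 100528000, minus strand), which splits citrate into acetyl-CoA for both arms, was at 389, 280.0 and 215 CPM in the AML WT mice, 206 and 205 in the AML HET mice and 127, 279 and 192 in the AML KO mice. Acaca, which makes malonyl-CoA, was at 89.7, 59.4 and 43.1 CPM in the AML WT mice, 47.5 and 43.02 in the AML HET mice and 31.4, 53.3 and 43.5 in the AML KO mice. Fasn (ENSMUSG00000025153, chromosome 11, 120805846 to 120824547, minus strand), which builds palmitate, was at 215, 149 and 112 CPM in the AML WT mice, 113 and 115 in the AML HET mice and 72.3, 132 and 105 in the AML KO mice. In all 3 genes AML WT replicate 1 was the highest mouse, AML KO replicate 1 the lowest, and AML KO replicate 2 lay above AML WT replicate 3. The log2 fold changes were -0.57 (SE 0.28, adjusted p 0.318) for Acly, -0.58 (SE 0.27, adjusted p 0.291) for Acaca and -0.62 (SE 0.26, adjusted p 0.262) for Fasn, and without AML WT replicate 1 they were -0.32, -0.27 and -0.35. Of the 50-base stretches of Acaca 52.6% are shared with Gm5182, so its counts are uncertain.

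Elovl6, which elongates palmitate, was at 60.8, 46.7 and 44.6 CPM in the AML WT mice, 50.03 and 38.3 in the AML HET mice and 36.5, 39.8 and 39.7 in the AML KO mice. The AML WT and AML KO groups did not overlap, and the log2 fold change was -0.39 (SE 0.16, adjusted p 0.256), or -0.25 without AML WT replicate 1. Fads2, the first desaturase of polyunsaturated fatty acids, was at 30.04, 29.4 and 19.6 CPM in the AML WT mice, 23.1 and 19.7 in the AML HET mice and 9.91, 24.6 and 13.5 in the AML KO mice. AML KO replicates 1 and 3 were below all other mice while replicate 2 was within the AML WT range, giving -0.72 (SE 0.31, adjusted p 0.272), or -0.47 without AML KO replicate 1. Fads1, the next desaturase and a neighbour of Fads2 on chromosome 19, had -0.27 (SE 0.13, adjusted p 0.317). Without AML KO replicate 2, Fads2 (log2 fold change -1.17, adjusted p 0.0408) and Insig1 (-0.94, adjusted p 0.0407) passed the threshold in edgeR, where 0.789% of all genes were then called lower.

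Me1, the malic enzyme gene that supplies NADPH, had the largest higher estimate of the members, at a very low level. It was at 0.393, 0.9799 and 0.674 CPM in the AML WT mice, 0.456 and 0.319 in the AML HET mice and 0.8503, 1.201 and 0.884 in the AML KO mice. The log2 fold change was 0.53 (SE 0.41, adjusted p 0.4803) against AML WT and 1.33 (SE 0.50, adjusted p 0.771) against AML HET BM. With 10 counts in the lowest library and 26.5% of its stretches shared, mainly with Gm7049, its level is uncertain.

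Among the regulators, Insig1 (ENSMUSG00000045294, chromosome 5, 28071363 to 28078662, plus strand), itself a target of the sterol regulatory proteins, had the largest difference. It was at 52.9, 61.95 and 49.1 CPM in the AML WT mice, 54.3 and 43.9 in the AML HET mice and 24.5, 42.2 and 32.6 in the AML KO mice. All AML KO mice were below all other mice, at 0.605 times the AML WT level and a log2 fold change of -0.73 (SE 0.20, adjusted p 0.122). Srebf1 was at 147, 161 and 128 CPM in the AML WT mice, 132 and 129 in the AML HET mice and 119, 142 and 123 in the AML KO mice, with a log2 fold change of -0.18 (SE 0.13, adjusted p 0.432). Srebf2 was at 267, 269.9 and 221 CPM in the AML WT mice, 221 and 203 in the AML HET mice and 163, 274 and 182 in the AML KO mice, with -0.29 (SE 0.19, adjusted p 0.405). AML KO replicate 2 had the highest Srebf2 level of all mice and the other AML KO mice the lowest. Stard4, a cholesterol carrier, had -0.18 (SE 0.14, adjusted p 0.477), and Tmem97, a membrane protein of cholesterol trafficking, had 0.03 (SE 0.14, adjusted p 0.918), which turned to -0.033 with total counts. Of the stretches of Tmem97 20.8% are shared with Gm5809.

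In AML KO against AML WT BM, 9 members had groups that did not overlap, all lower in AML KO mice (Hmgcs1, Idi1, Sqle, Lss, Sc5d, Elovl6, Scd1, Scd2 and Insig1), against 9.83% of all genes. These 9 were 5 of 19 sterol genes, 3 of 9 fatty acid genes and Insig1. By DESeq2 the adjusted p was 0.00987 for Sqle, 0.00990 for Lss, 0.0204 for Scd1, 0.0229 for Insig1 and 0.0299 for Scd2, where 1.71% of all genes were called lower. The number of members with an unadjusted p under 0.05 fell from 12 to 7 when AML WT replicate 2, AML KO replicate 1 or AML KO replicate 3 was left out.

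Set side by side, the arms had medians of -0.28 (sterol) and -0.58 (fatty acid) in AML KO against AML WT BM, a gap of -0.30. The median of the sterol arm in single mice, on the log2 scale relative to the AML WT mean, was -0.17, 0.23 and -0.04 in AML WT, -0.02 and -0.22 in AML HET and -0.20, -0.35 and -0.29 in AML KO mice. That of the fatty acid arm was 0.22, 0.05 and -0.41 in AML WT, -0.16 and -0.42 in AML HET and -1.07, -0.20 and -0.54 in AML KO mice. The sterol medians of AML KO mice were below all AML WT mice, although AML HET replicate 2 was below AML KO replicate 1, whereas the fatty acid medians overlapped, with AML KO replicate 2 above AML WT replicate 3.

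The gap between the arms in a single mouse (fatty acid minus sterol) was 0.39, -0.18 and -0.37 in AML WT, -0.14 and -0.20 in AML HET and -0.87, 0.15 and -0.26 in AML KO mice. These ranges overlapped, so a larger shift of the fatty acid arm than of the sterol arm was not separable from the spread between mice. The fatty acid genes were also measured with less precision, with a median SE of the log2 fold change of 0.27 against 0.17 for sterol genes and a median coefficient of variation among AML WT mice of 29.8% against 17.3%. The sterol median was -0.11 without AML WT replicate 2, and the fatty acid median was -0.32 without AML WT replicate 1.

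**Figure D3:**
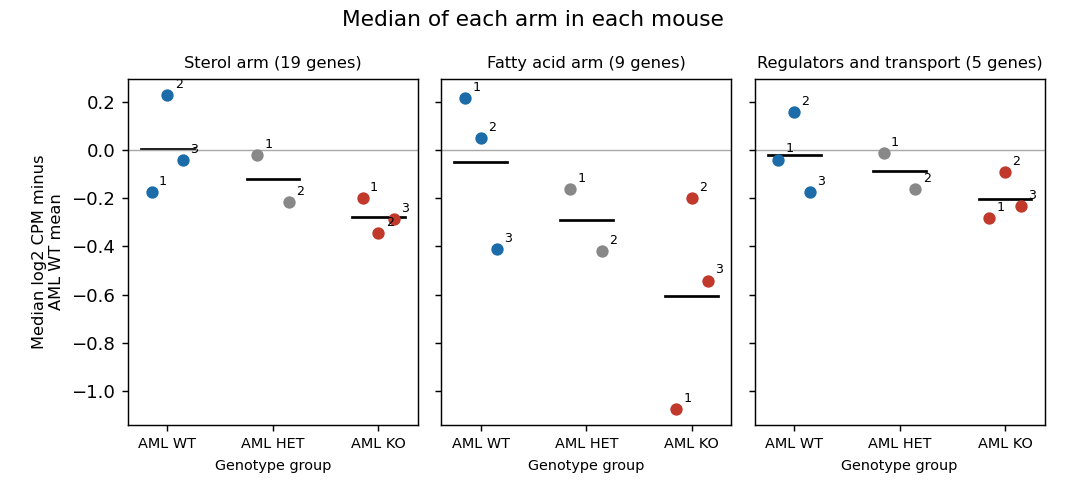
Median log2 CPM minus the AML WT mean (vertical axis) over the genes of the sterol arm, the fatty acid arm and the regulators and transport genes, with 1 point per mouse, numbered by replicate, and a black line for the mean of the genotype group. The 3 AML KO points are close together in the sterol arm (-0.35 to -0.20) and spread out in the fatty acid arm (-1.07 to -0.20).

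Mice differed in a different order in each arm. In the sterol arm AML WT replicate 2 had the highest AML WT level for 15 of 19 genes and AML WT replicate 1 the lowest for 11. In the fatty acid arm AML WT replicate 1 had the highest level for 6 of 9 genes and AML WT replicate 3 the lowest for 8. Among AML KO mice, replicate 2 was highest for 9 of 9 fatty acid genes and replicate 1 lowest for 8, while in the sterol arm replicate 2 was highest for 9 of 19 genes and lowest for 5. The genes of an arm share the libraries, so these counts describe single mice and not repeated measurements.

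Partial loss of Gab2 was compared with AML WT BM next. In AML HET against AML WT BM, 29 of 33 members had the lower estimate, against 51.5% of all genes, but 20 of 33 when AML WT replicate 2 was left out. None passed the threshold in edgeR, DESeq2 or limma-voom, and 0 had an unadjusted p under 0.05, against 2.47% of all genes. The median log2 fold change was -0.15 over the members, -0.05 in the sterol arm and -0.39 in the fatty acid arm, against -0.01 over all genes. Groups did not overlap for Acly and Srebf2, which were lower in AML HET mice, and for Ebp, which was higher (Srebf2 at 221.0 CPM in the higher AML HET and 221.2 in the lowest AML WT mouse), where 8.61% of all genes did not overlap and were lower. Of all 13305 genes, 1268 did not overlap and were higher. The largest differences in the fatty acid arm were those of Me1 (-0.80), Acly (-0.52), Acaca (-0.50) and Fasn (-0.48), while Sqle was at -0.26, Lss at -0.18 and Insig1 at -0.15. Without AML WT replicate 2 the sterol median was 0.058 and without AML HET replicate 1 it was -0.24. The fatty acid median was -0.66 without AML WT replicate 3 and -0.19 without AML HET replicate 2 or AML WT replicate 1, and -0.26 without AML WT replicate 2.

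In AML KO against AML HET BM, 29 members again had the lower estimate, against 49.9% of all genes, and none passed the threshold in edgeR, DESeq2 or limma-voom. An unadjusted p under 0.05 was reached by 6 members, Idi1, Lss, Scd1, Scd2 and Insig1 as lower and Me1 as higher, against 5.86% of all genes. Log2 fold changes were -0.55 (SE 0.20, adjusted p 0.767) for Lss, -0.57 (SE 0.22, adjusted p 0.771) for Insig1, -0.58 (SE 0.23, adjusted p 0.779) for Idi1, -1.23 (SE 0.54, adjusted p 0.835) for Scd1 and -0.56 (SE 0.25, adjusted p 0.835) for Scd2. Without AML HET replicate 1 they were -0.25 for Idi1, -0.76 for Scd1 and -0.31 for Scd2. All 11 genes from squalene to cholesterol had the lower estimate in AML KO mice, with a median of -0.30. The arm medians were -0.20 for sterol and -0.19 for fatty acid genes, against 0.00 over all genes. Groups did not overlap for 10 lower members (Hmgcs1, Mvd, Sqle, Lss, Cyp51, Sc5d, Scd1, Scd2, Insig1 and Stard4), against 11.0% of all genes. They also did not overlap for Me1, which was higher in AML KO mice, as were 1751 of all 13305 genes without overlap. Leaving out AML HET replicate 1 or AML KO replicate 1 took this count of 6 to 1, and leaving out AML KO replicate 3, or adding a replicate block, took it to 2. The fatty acid median became -0.36 when AML KO replicate 2 was left out. This comparison shares its mice with the other 2, and with 2 AML HET mice its estimates are less precise than those of AML KO against AML WT BM.

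Per length of merged exons, members differed widely in level. Scd2 was highest at 68.8 CPM per kb over the 8 mice, followed by Acly at 44.8, Tmem97 at 36.4 and Srebf2 at 31.3. Ebp (29.1), Mvd (26.6) and Srebf1 (24.01) came next. At the low end were Me1 at 0.187, Scd1 at 0.982, Fdps at 1.49, Lss at 1.54 and Hsd17b7 at 1.64 CPM per kb. Merged exons exceed the longest coding transcript by an uneven margin, 4208 against 1382 bases for Fdps and 10787 against 4667 for Lss. For Srebf2 the lengths were 7184 and 5077 bases, while for Tmem97 each was 1375. The order therefore depends on the length used, and most 50-base stretches of Fdps are shared with other genes. Of the desaturase pair, BM of every genotype held far more Scd2 than Scd1, with AML WT means of 84.6 ± 21.1 and 1.43 ± 0.853 CPM per kb and AML KO means of 49.8 ± 10.4 and 0.463 ± 0.226 (SD, n = 3). Srebf2 and Srebf1 were both in the upper range, at 35.2 ± 3.82 and 25.8 ± 2.94 CPM per kb in AML WT mice and at 28.7 ± 8.25 and 22.7 ± 2.15 in AML KO mice (SD, n = 3). Among AML WT mice, neighbours in this order such as Srebf1, Mvd and Ebp were within the spread of each other.

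**Figure D4:**
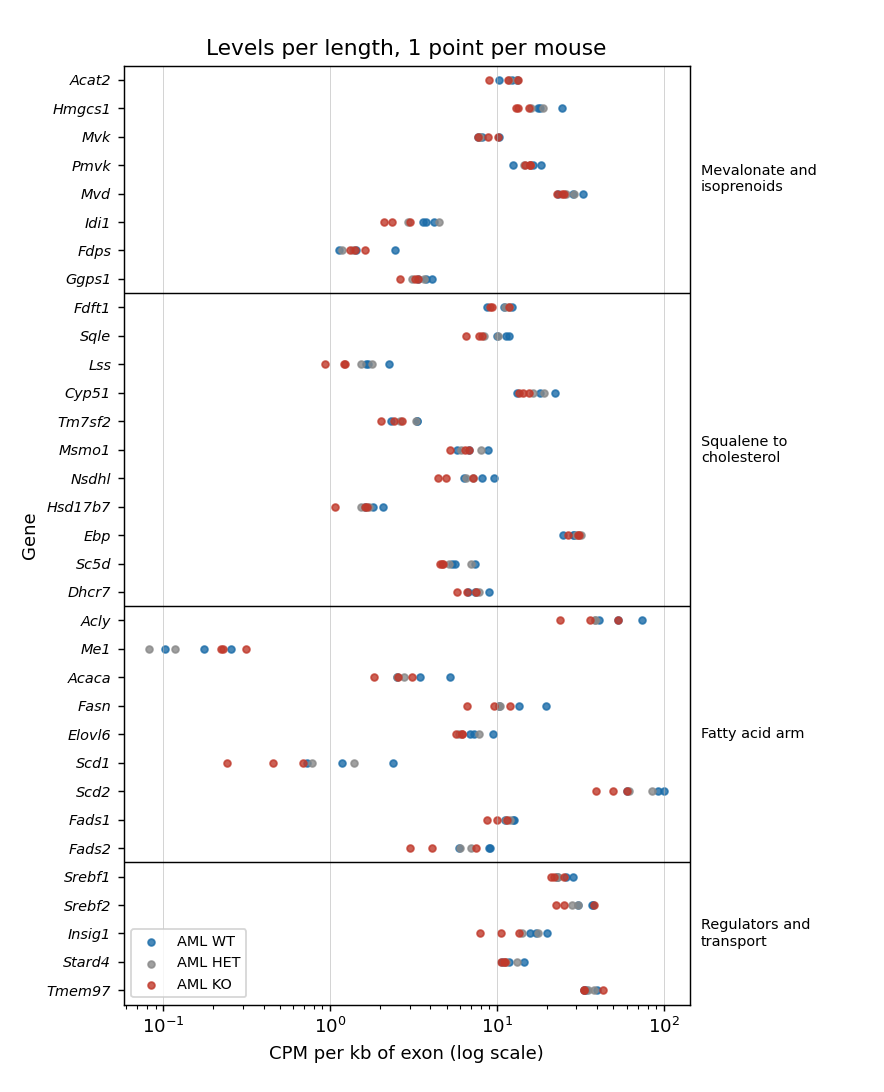
Level of each of the 33 genes in CPM per kb of merged exon (horizontal axis, log scale), with 1 point per mouse coloured by genotype. Scd2 lies at the right and Me1 at the left end, and the AML KO points of Sqle, Lss, Insig1 and Scd1 lie left of the AML WT points.

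Other genes of sterol uptake and control, taken from a list of 16, held no called gene when AML KO was compared with AML WT BM. Of these, 12 had the lower estimate, against 51.9% of all genes, with a median of -0.22. By edgeR, 2 of the 16 had an unadjusted p under 0.05, against 17.7% of all genes. Mbtps2, a protease that releases the sterol regulatory proteins, was at 34.9, 17.7 and 17.6 CPM in the AML WT mice, 22.02 and 16.4 in the AML HET mice and 12.7, 17.3 and 17.2 in the AML KO mice. Its AML WT and AML KO groups did not overlap, although AML WT replicate 1 stood far above all other mice, and the log2 fold change was -0.58 (SE 0.28, adjusted p 0.307), or -0.18 without that mouse.

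Of 10 genes of cholesterol efflux and its control, 9 had the lower estimate, against 51.9% of all genes, with a median of -0.35 and no call. By edgeR, 4 had an unadjusted p under 0.05, all lower. Over all genes, 17.7% reached it in either direction and 7.88% as lower. Pltp, the phospholipid transfer protein, was at 7.401, 11.8 and 14.4 CPM in the AML WT mice, 7.397 and 5.77 in the AML HET mice and 3.303, 7.72 and 3.04 in the AML KO mice. Its log2 fold change was -1.26 (SE 0.38, adjusted p 0.162), and it was called by DESeq2 (adjusted p 0.0245) and without AML KO replicate 2 (-1.82, adjusted p 0.0249). The efflux pumps Abca1 and Abcg1 had -1.22 (SE 0.53, adjusted p 0.273) and -0.53 (SE 0.23, adjusted p 0.274), and Abca1 was at -0.64 without AML WT replicate 1, which was at 26.5 CPM. Genes of these pumps are known targets of sterol-sensing liver X receptors.

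Other genes of fatty acid synthesis and of fatty acid oxidation were spread around 0. Of 19 synthesis genes outside the members, 12 had the lower estimate, against 51.9% of all genes, with a median of -0.05. By edgeR, 2 had an unadjusted p under 0.05, both lower, against 17.7% of all genes in either direction and 7.88% as lower. The largest differences were those of the elongation genes Hacd4 (-0.52, adjusted p 0.272, or -0.29 without AML WT replicate 1) and Hsd17b12 (-0.46, adjusted p 0.161) and the acyl-CoA synthetase gene Acsl4 (-0.41, adjusted p 0.307). Of 15 oxidation genes, 8 were lower and 7 higher with a median of -0.04. By edgeR, the 2 with an unadjusted p under 0.05 were higher, against 17.7% of all genes in either direction. The largest differences were those of Etfb (0.63, adjusted p 0.219), an electron carrier subunit, Slc25a20 (0.41, adjusted p 0.183), the carnitine carrier of mitochondria, and the peroxisomal enzyme gene Ehhadh (-0.31, adjusted p 0.649). None of the genes of these 4 lists passed the threshold in edgeR.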

How the data were processed

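The authors deposited raw counts of reads per gene for 8 BM libraries, without normalization. Per the submitters' processing notes, Trimmomatic 0.36, STAR 2.5.2b and mm10 were used; the counting program and its annotation are not given in the sources used here. All 13305 listed genes have at least 106 counts over the 8 mice. Counts were scaled with TMM and tested with edgeR 4.0.16 (quasi-likelihood, robust, genotype as the only term, all 8 mice) in R 4.3.3, with Benjamini-Hochberg adjustment over all genes and a threshold of 0.05; filterByExpr removed 0 genes. Log2 CPM used a prior count of 2. Standard errors were derived from the F statistic. On simulated AML KO against AML WT counts for 13305 genes, 58 of 100 genes changed 2-fold and 91 of 100 changed 4-fold were recovered, with 5 unchanged genes called. Smaller changes were not simulated. The rates therefore do not cover changes as small as the members' median log2 fold change in that comparison, -0.30. Titles give mouse numbers, so replicates are separate mice, and no pair of libraries of 1 genotype agreed within sampling noise. Shared 50-base stretches were counted between GENCODE M21 transcripts. The members and lists were chosen with earlier results of these data known. Named genes are the members, Gab2, paralogs in the table, and the 3 largest differences of each other list. Some genes that meet this rule are not reported here. Alternatives were DESeq2 1.42.0, limma-voom (limma 3.58.1), other scalings and filters, the replicate block, only the groups compared, other arm memberships and each mouse left out. Figures were drawn with Python 3.11.15 and matplotlib 3.10.9.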

Additional observations from a re-analysis of the deposited data

How the results depend on the processing

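With 2 or 3 mice per group, the spread between mice limits these results. Medians of both arms kept their sign in all 3 comparisons under every scaling, filter, test and arm membership tried. No alternative other than DESeq2 and leaving out AML KO replicate 2 called a member, and members lower in AML KO against AML WT BM numbered 29 in the fit reported and 31 with total counts, which moved the median of all genes from -0.0167 to -0.0761. With a mouse left out, these members numbered from 25, without AML WT replicate 2, to 31, without AML WT replicate 1. For the values below the cause was not tested.

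Members called in AML KO against AML WT BM numbered 5 with DESeq2 and 0 to 2 with a mouse left out. All genes called there numbered 278, 730 with DESeq2, 159 with at least 1 CPM in every mouse, 19 with the replicate block and 40 to 370 with a mouse left out. In AML HET against AML WT BM, the 3 calls became 59 with DESeq2, 1 with limma-voom, 1 with the CPM filter, 0 with the replicate block, 5 with only the groups compared and 1 to 5 with a mouse left out. In AML KO against AML HET BM, the 0 calls became 77 with DESeq2, 3 with only the groups compared and 0 to 4 with a mouse left out. With a mouse left out, the sterol median was -0.36 to -0.11 in AML KO against AML WT BM and -0.24 to 0.058 in AML HET against AML WT BM.

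The log2 fold change of Gab2 lost its call with the CPM filter (-0.87, adjusted p 0.0551), the replicate block (-0.85, 0.165) and only the groups compared (-0.87, 0.0809), and in 6 of the 8 fits with a mouse left out (-0.99 to -0.68 over all 8, adjusted p 0.0302 to 0.159). Reversed signs came from members near 0 and from Fdps, which was at -0.19 (SE 0.29) in the fit reported. With total counts the reversed members were Mvk (-0.032) and Tmem97 (-0.033). With a mouse left out, Acat2 ranged from -0.20 to 0.069, Mvk from -0.082 to 0.17, Pmvk from -0.18 to 0.10, Fdps from -0.42 to 0.19, Fdft1 from -0.21 to 0.032 and Tmem97 from -0.10 to 0.12.

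Same-numbered AML KO and AML WT mice did not deviate together (correlations of -0.509, -0.109 and -0.131), AML KO and AML HET mice neither (-0.138 and -0.0397), while AML HET and AML WT mice had 0.0761 and 0.289. With only 2 such pairs and nothing in the labels, the numbers were not taken as pairing the mice. AML KO replicate 1 correlated best with AML WT replicate 3 (0.457). The replicate block called 0 members in each comparison and took those with an unadjusted p under 0.05 in AML KO against AML HET BM from 6 to 2.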
